A study of Homo sapiens with 18 samples.

Results

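SIX3, SIX4, SIX5, EYA1, EYA2, EYA3, EYA4 and DACH1 belong to 3 families of transcription factors and cofactors named SIX-, EYA- and DACH-type after their fly genes, which together form a regulatory network first described in eye development. The 8 genes were taken by symbol from the 28063 genes listed for each library, and 7 of them passed the filter on low counts that left 12853 genes for testing. SIX5 did not pass. Newly made RNA was measured in human neuroblastoma cells after the chromatin remodelling ATPase SMARCA4 had been inhibited or degraded. The 18 libraries formed 9 groups of 2. Wild-type cells of 3 established neuroblastoma lines, KELLY, SK-N-DZ and IMR-32, were treated with DMSO or with BRM014 at 1 uM, a compound that blocks the ATPase activity of SMARCA4 and its relative SMARCA2. SMARCA4-mAID cells are engineered IMR-32 cells in which SMARCA4 carries a degron tag that lets auxin trigger its degradation, and they received 500 uM auxin or ethanol. All of these cells were given 500 uM 4-thiouridine (4sU), a nucleoside that enters new RNA, for 2 h before harvest, and 2 further KELLY libraries came from wild-type cells that received neither drug nor 4sU. The labels do not say whether the engineered line was a single clone, and they give no time of exposure for the drug or for auxin.

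SIX-family proteins bind DNA through a homeodomain. EYA proteins do not bind DNA themselves. They are recruited by SIX-family proteins as co-activators and carry a phosphatase domain. DACH proteins are relatives of the SKI and SKIL co-repressors and can turn the same target genes down. In the embryo the network is known from the eye, the ear, muscle, kidney and the sensory and sympathetic nervous system, the last being the lineage from which neuroblastoma arises.

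The homeodomains are similar enough that the sequences show what separates the counts of one SIX-family gene from those of another. The stretches below code for the third helix of the homeodomain, the part that contacts DNA, all lie in exon 1 of their gene (GRCh38, GENCODE 29), and have in capitals each base that differs from SIX3. SIX2 and SIX6, which are not among the 8 genes, are shown because SIX2 was measured in these cells and SIX6 is the closest relative of SIX3.
SIX3 (chr2:44942834-44942893, plus strand): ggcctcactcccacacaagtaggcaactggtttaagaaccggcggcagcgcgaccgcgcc
SIX4 (chr14:60723235-60723294, minus strand): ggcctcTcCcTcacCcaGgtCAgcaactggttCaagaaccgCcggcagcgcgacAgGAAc
SIX5 (chr19:45768071-45768130, minus strand): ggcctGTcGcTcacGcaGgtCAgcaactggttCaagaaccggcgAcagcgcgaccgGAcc
SIX2 (chr2:45008568-45008627, minus strand): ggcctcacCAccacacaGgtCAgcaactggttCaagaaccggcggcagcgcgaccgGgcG
SIX6 (chr14:60509894-60509953, plus strand): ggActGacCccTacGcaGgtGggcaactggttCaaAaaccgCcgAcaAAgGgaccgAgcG
Over these 60 bases SIX4 differed from SIX3 at 13 positions, SIX5 at 12, SIX2 at 8 and SIX6 at 16. The longest run of identical bases between the SIX3 transcript and any other SIX-family transcript was 29, shared with SIX6, and no library of any group held more than 2 counts of SIX6. SIX4 shared no run longer than 26 bases with another family member.

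The EYA stretches code for the catalytic motif of the phosphatase domain, with capitals at each base that differs from EYA4.
EYA4 (chr6:133483032-133483091, plus strand, exon 13): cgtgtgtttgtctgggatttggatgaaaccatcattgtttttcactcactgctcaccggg
EYA2 (chr20:47097085-47097144, plus strand, exon 9): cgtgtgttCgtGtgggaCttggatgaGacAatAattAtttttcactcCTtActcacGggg
EYA3 (chr1:28004360-28004419, minus strand, exon 11): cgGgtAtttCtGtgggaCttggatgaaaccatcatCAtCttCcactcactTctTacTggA
EYA2 differed from EYA4 at 11 of these positions and EYA3 at 13. Among the EYA transcripts the longest identical runs were 42 bases between EYA1 and EYA3 and 35 between EYA1 and EYA4, and all other pairs shared at most 20. The read length and the handling of reads that match several genes are not stated in the labels, so reads inside the longer shared runs could have been assigned to either gene.

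Levels are given as counts scaled to a library total of 1000000 gene counts (CPM), with n = 2 libraries per group throughout, and fold changes and tests come from one model over the 16 labelled libraries. A gene was called changed at an adjusted p below 0.05 over all 12853 tested genes. Labelled libraries held 724913 to 1740475 gene counts, and the BRM014 libraries of IMR-32 and SK-N-DZ were the 4 smallest, at 724913 to 775064. The unlabelled KELLY libraries held 5395 and 4432 counts, 0.348% of the labelled KELLY DMSO total. SMARCA4 itself stood at 85.5 and 101.9 CPM in IMR-32 with DMSO and 74.1 and 76.1 with BRM014, at 115.7 and 114.1 in KELLY with DMSO and 105.6 and 130.3 with BRM014, and at 172.4 and 151.1 in SK-N-DZ with DMSO and 111.7 and 134.5 with BRM014. In SMARCA4-mAID cells it stood at 724.5 and 841.7 CPM with ethanol and 644.3 and 584.4 with auxin. Both agents act on the protein, so RNA counts do not check the treatments. The engineered line gave SMARCA4 counts far above those of its parent in both of its groups. Of 10 adrenergic markers, which mark the sympathetic state of neuroblastoma, 8 to 10 were detected in each labelled group. The catecholamine enzymes TH and DBH were at 0 in IMR-32 with BRM014 and in both SMARCA4-mAID groups, and TH in SK-N-DZ with BRM014. Summed markers of Schwann cells stayed at or below 12.64 CPM and those of skeletal muscle at or below 3.32 CPM. In these bulk libraries, a change in the number of cells that express a gene and a change in RNA per cell cannot be told apart.

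SIX3 was the member with a call in every treatment comparison, and each time it was higher in the treated cells. SIX3 is a homeodomain repressor of the developing forebrain and eye that works with TLE co-repressors (ENSG00000138083.4, chromosome 2, 44941898 to 44946077, plus strand). In IMR-32 the DMSO libraries read 231 and 147 CPM and the BRM014 libraries 472 and 467 CPM. The DMSO libraries differed from each other by more than the BRM014 libraries did, and both lay below both treated libraries. The log2 change was 1.35 (SE 0.155, adjusted p = 3.10e-11), or 2.55-fold. In SMARCA4-mAID cells the ethanol libraries read 137 and 120.2 CPM and the auxin libraries 242 and 283 CPM. The groups did not overlap, and the log2 change was 1.03 (SE 0.156, adjusted p = 1.53e-06).

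SIX3 rose in KELLY from the lowest starting level of the 3 lines. KELLY libraries read 28.3 and 29.1 CPM with DMSO and 52.5 and 56.2 CPM with BRM014, without overlap, for a log2 change of 0.96 (SE 0.229, adjusted p = 0.00139). The unlabelled KELLY libraries held 1 and 6 SIX3 counts against 81 in the labelled DMSO libraries, or 8.64%, a larger share than the 0.348% over all genes, and the part of unlabelled RNA in the labelled SIX3 level was not tested. In SK-N-DZ the DMSO libraries read 80.5 and 63.8 CPM and the BRM014 libraries 288 and 309.9 CPM. Both treated libraries lay far above both DMSO libraries, and the log2 change was 2.06 (SE 0.173, adjusted p = 1.33e-17), or 4.18-fold. The rise in SK-N-DZ exceeded that in KELLY by 1.10 log2 units (SE 0.294, adjusted p = 0.0135). That difference was not called without KELLY DMSO replicate 1 (adjusted p = 0.0674) or without SK-N-DZ DMSO replicate 2 (0.0836). The SK-N-DZ and IMR-32 rises differed by 0.71 (SE 0.231), short of the threshold in the main fit (adjusted p = 0.0801). With all libraries kept, the difference was called with no filter on low counts (0.0492) and with a correction for GC content and length (0.0435). With a library left out it ranged from 0.34 to 1.00, and it was called without IMR-32 DMSO replicate 2 or without SK-N-DZ DMSO replicate 1.

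SIX4 gave no call in any of the 4 treatment comparisons, and SIX5 was not tested. SIX4 acts in muscle and sensory precursors (ENSG00000100625.8, chromosome 14, 60709528 to 60724348, minus strand). Its libraries read 36.2 and 26.1 CPM with DMSO and 28.3 and 19.4 CPM with BRM014 in IMR-32, and 30.8 and 29.9 against 31.9 and 17.9 CPM in KELLY. Treated and vehicle libraries overlapped in both lines. In SK-N-DZ the DMSO libraries read 37.1 and 45.4 CPM and the BRM014 libraries 60.7 and 58.0 CPM. There the groups did not overlap, and the log2 difference of 0.53 (SE 0.356, 95% interval -0.17 to 1.23, adjusted p = 0.329) did not pass. The SMARCA4-mAID libraries read 27.9 and 30.5 CPM with ethanol and 23.2 and 18.6 CPM with auxin, also without overlap, at a log2 difference of -0.49 (SE 0.379, adjusted p = 0.715). SIX5, a relative of SIX4 that lies next to the myotonic dystrophy kinase gene DMPK (ENSG00000177045.8, chromosome 19, 45764785 to 45769226, minus strand), had 1 count in each IMR-32 BRM014 library and 1 in a single auxin library. It had 0 counts in every other library. A count of 0 in a group allows up to 3 counts over its 2 libraries, for SIX5 at most 2.023 CPM in the labelled groups.

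**Figure D1:**
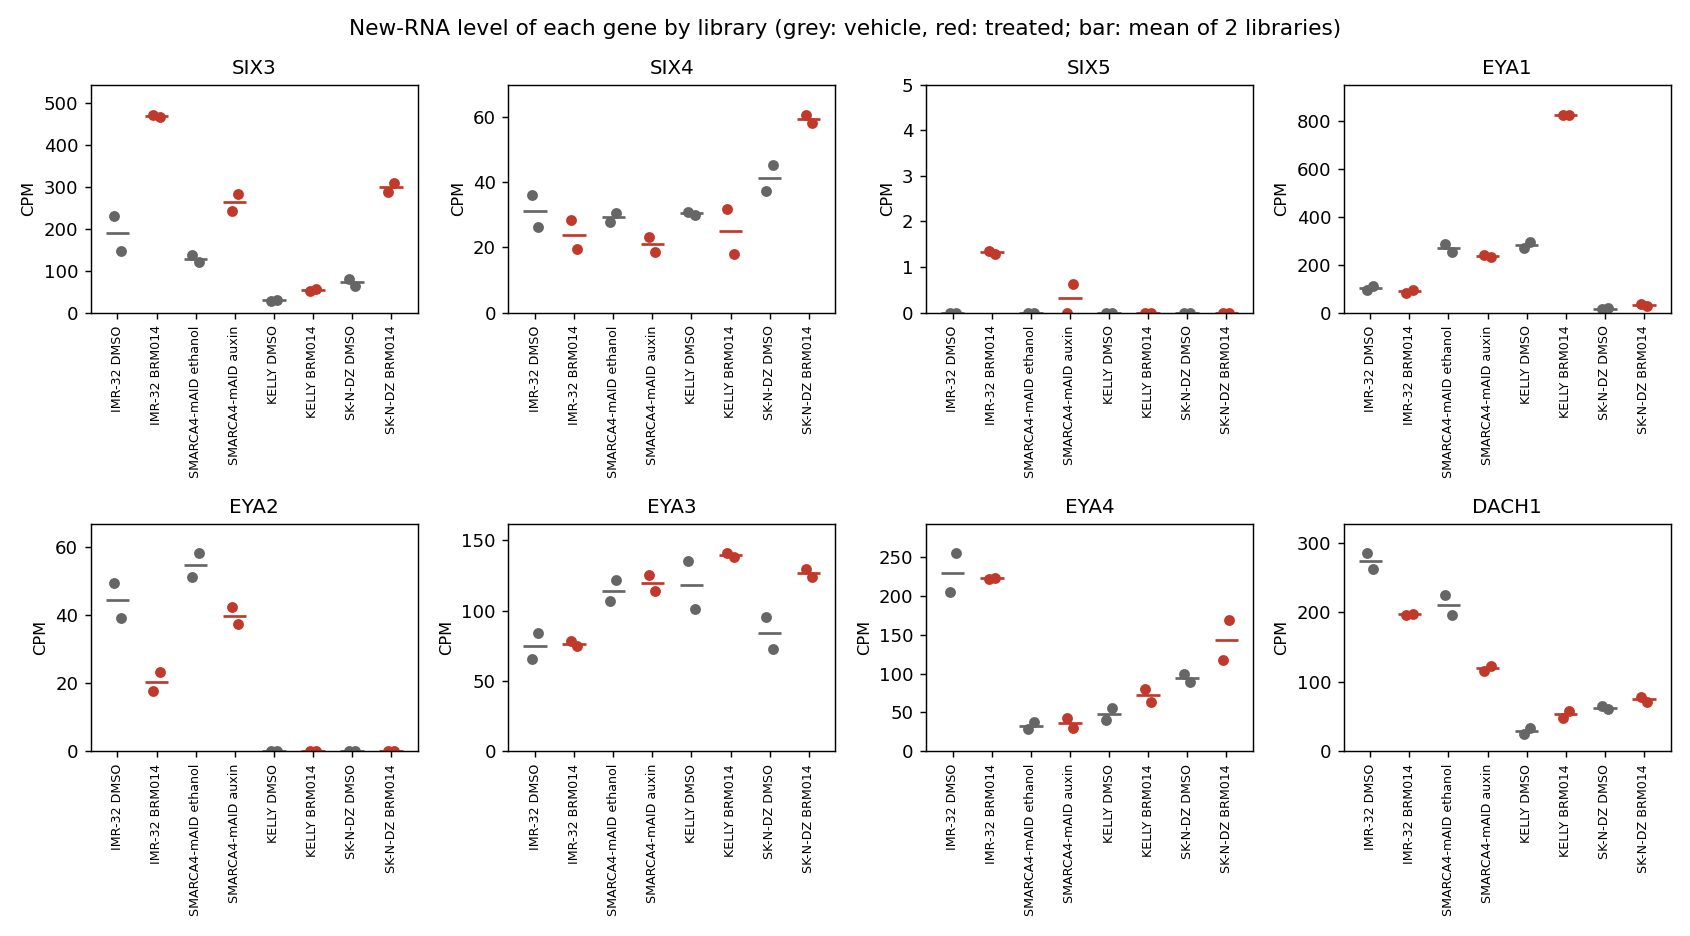
CPM of each of the 8 genes (vertical axes, from 0, scaled per gene) in the 16 labelled libraries, with vehicle groups in grey, treated groups in red, 1 point per library and a bar at the mean of 2 libraries. SIX3 lay higher in both treated libraries of all 4 pairs of groups, EYA1 reached 828 and 825 CPM in KELLY with BRM014, and EYA2 was at 0 in KELLY and SK-N-DZ.

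EYA1 rose in 2 of the 3 lines with BRM014 and was not called in either IMR-32 experiment. EYA1 is the co-activator whose loss causes branchio-oto-renal syndrome, a disorder of ear and kidney development (chromosome 8, 71197433 to 71592025, minus strand). In KELLY it read 268 and 294 CPM with DMSO and 828 and 825 CPM with BRM014. The treated libraries nearly coincided and lay far above the DMSO libraries, for a log2 change of 1.60 (SE 0.128, adjusted p = 6.46e-19), or 3.03-fold. In SK-N-DZ it read 13.2 and 17.2 CPM with DMSO and 34.5 and 27.7 CPM with BRM014. These are the lowest EYA1 levels of any line, resting on 21 to 30 counts a library. The groups did not overlap, and the log2 change of 1.02 (SE 0.295, adjusted p = 0.00703) was not called without SK-N-DZ BRM014 replicate 1 (adjusted p = 0.15), without SK-N-DZ DMSO replicate 1 (0.0693) or with only the 4 SK-N-DZ libraries in the model (0.0994).

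In IMR-32 EYA1 read 95.3 and 109.7 CPM with DMSO and 83.6 and 95.5 CPM with BRM014, which overlap, with a log2 difference of -0.14 (95% interval -0.49 to 0.22, adjusted p = 0.702). SMARCA4-mAID libraries read 288 and 254 CPM with ethanol and 239 and 231 CPM with auxin. Here the auxin libraries were the lower ones without overlap, by -0.20 on the log2 scale (95% interval -0.46 to 0.06, adjusted p = 0.619). The BRM014 effect on EYA1 in KELLY exceeded that in IMR-32 by 1.74 (SE 0.219, adjusted p = 2.41e-09), a difference called under every alternative tried. The corresponding difference for SK-N-DZ was 1.16 (SE 0.344, adjusted p = 0.0448). It missed the threshold with DESeq2's size factors (0.0509), with a correction for GC content and length (0.0648) and with any of 6 of the 8 libraries left out, which were IMR-32 BRM014 replicate 1 (0.0868), IMR-32 DMSO replicate 2 (0.128), SK-N-DZ BRM014 replicates 1 (0.271) and 2 (0.0537), and SK-N-DZ DMSO replicates 1 (0.159) and 2 (0.0509). Both differences share the IMR-32 libraries.

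EYA2 was counted in the IMR-32 cultures and had no count in any KELLY or SK-N-DZ library. EYA2 is a co-activator studied in muscle and in several carcinomas (chromosome 20, 46894624 to 47188844, plus strand). It read 49.4 and 39.2 CPM in IMR-32 with DMSO and 17.5 and 23.2 CPM with BRM014. The treated libraries were both lower, yet the log2 difference of -1.07 (SE 0.467, adjusted p = 0.125) did not pass. With ethanol the SMARCA4-mAID libraries read 51.1 and 58.0 CPM, and with auxin 42.1 and 37.2 CPM, again without overlap and without a call (log2 difference -0.46, SE 0.405, adjusted p = 0.76).

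EYA3 and EYA4 were each called only in SK-N-DZ, and whether their response differed between lines was tested and not called. EYA3 is the most broadly expressed EYA gene (chromosome 1, 27970344 to 28088696, minus strand). In SK-N-DZ it read 95.6 and 73.0 CPM with DMSO and 129.7 and 124.0 CPM with BRM014. All treated values lay above the DMSO values, and the log2 change was 0.60 (SE 0.212, adjusted p = 0.0335). The call was lost without SK-N-DZ BRM014 replicate 1 (adjusted p = 0.166), BRM014 replicate 2 (0.0901) or DMSO replicate 2 (0.345), with no filter (0.0503) and with the GC and length correction (0.0782). In IMR-32 the libraries read 65.4 and 84.5 CPM with DMSO and 78.2 and 74.8 CPM with BRM014, in SMARCA4-mAID cells 106.9 and 121.5 CPM with ethanol and 125.7 and 114.1 CPM with auxin, and in KELLY 135.2 and 101.1 CPM with DMSO and 140.8 and 138.2 CPM with BRM014. Their log2 differences were 0.09, 0.07 and 0.27, and none was called.

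EYA4 is a co-activator whose mutation causes hearing loss and cardiomyopathy (chromosome 6, 133240598 to 133532120, plus strand). In SK-N-DZ it read 100 and 89.6 CPM with DMSO and 117.3 and 168.8 CPM with BRM014. The treated libraries differed widely from each other and both lay above the DMSO libraries, for a log2 change of 0.60 (SE 0.212, adjusted p = 0.0317). The call was lost without SK-N-DZ BRM014 replicate 2 (adjusted p = 0.489, with the log2 change down to 0.32), DMSO replicate 1 (0.0514) or DMSO replicate 2 (0.196), and with the GC and length correction (0.222). KELLY libraries read 40.9 and 55.8 CPM with DMSO and 80.4 and 64.2 CPM with BRM014. The KELLY groups did not overlap, and the log2 difference of 0.64 (SE 0.231) missed the threshold (adjusted p = 0.0567) with all libraries and passed it without KELLY BRM014 replicate 2 (0.0407) or DMSO replicate 2 (0.0427). In IMR-32 EYA4 read 205 and 255 CPM with DMSO and 222 and 223 CPM with BRM014, a log2 difference of 0.01 (95% interval -0.37 to 0.39). In SMARCA4-mAID cells it read 28.6 and 37.8 CPM with ethanol and 42.9 and 29.8 CPM with auxin, a log2 difference of 0.11 (95% interval -0.40 to 0.62).

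DACH1 moved in opposite directions in 2 comparisons, up in KELLY with BRM014 and down in SMARCA4-mAID cells with auxin. DACH1 is a DNA-binding cofactor that represses many of its targets (chromosome 13, 71437966 to 71867192, minus strand). In KELLY it read 25.2 and 34.0 CPM with DMSO and 47.8 and 58.2 CPM with BRM014. The groups did not overlap, and the log2 change was 0.90 (SE 0.236, adjusted p = 0.00423). It was not called without KELLY BRM014 replicate 2 (adjusted p = 0.0839) or KELLY DMSO replicate 1 (0.178). Each unlabelled KELLY library held 1 DACH1 count, together 2.44% of the 82 in the labelled DMSO libraries. That is a larger share than the 0.348% over all genes. The part of unlabelled RNA in the labelled DACH1 level was not tested.

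With ethanol the SMARCA4-mAID libraries read 226 and 196 CPM of DACH1, and with auxin 116.2 and 123.4 CPM. Both auxin libraries were far below both ethanol libraries, and DACH1 fell by 0.81 in log2 units (SE 0.172, adjusted p = 0.00124), a call lost without ethanol replicate 1 (adjusted p = 0.0815). IMR-32 with DMSO read 285 and 262 CPM, and with BRM014 it read 196.8 and 197.4 CPM. The direction was the same as with auxin, but the log2 difference of -0.43 (SE 0.174) was not called (adjusted p = 0.0958), except with only the 4 IMR-32 libraries in the model (0.0317) or with the GC and length correction (0.0498). SK-N-DZ read 65.4 and 60.3 CPM with DMSO and 78.6 and 71.2 CPM with BRM014, a log2 difference of 0.26 (95% interval -0.17 to 0.69, adjusted p = 0.457). The BRM014 effect in KELLY exceeded that in IMR-32 by 1.33 (SE 0.293, adjusted p = 0.00152), which was not called without KELLY DMSO replicate 1 (0.0539).

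**Figure D2:**
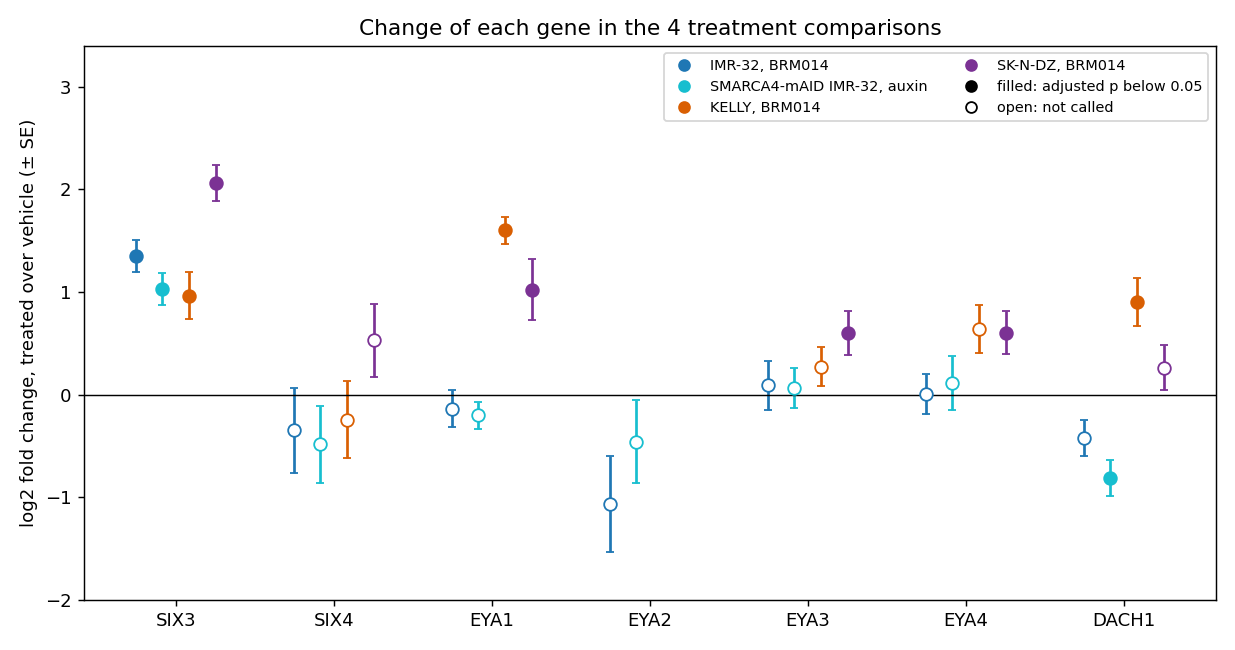
Log2 fold change of treated over vehicle cells (vertical axis) with its SE as error bar for the 7 tested genes in the 4 treatment comparisons, with filled points at an adjusted p below 0.05 and open points above it. SIX3 is filled in all 4 comparisons, at 0.96 to 2.06, while DACH1 is filled above 0 in KELLY (0.90) and below 0 with auxin (-0.81). EYA2 is shown for the IMR-32 cultures alone, as the other lines had no counts.

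Counted over the members, BRM014 called 1 of 7 in IMR-32 (12.8% of all tested genes were called there), 3 of 6 with counts in KELLY (11.6%) and 4 of 6 in SK-N-DZ (19.4%). All 8 of these calls were higher with BRM014, and SIX3 and EYA1 each gave more than 1 of them. Of all called genes, 805 of 1650 were higher in IMR-32, 845 of 1485 in KELLY and 1270 of 2498 in SK-N-DZ. Auxin called 1 member up and 1 down of 7 (2.19% of all genes). The median log2 change of the members was -0.14 in IMR-32, 0.77 in KELLY, 0.60 in SK-N-DZ and -0.20 with auxin, beside medians over all genes of -0.02, 0.00, -0.04 and 0.00. In SK-N-DZ the count fell to 2 of 6 without any one of the 4 SK-N-DZ libraries and with the GC and length correction, and the calls for SIX3 were kept under each of these. In KELLY it ranged from 2 to 4 with a library left out. For the differences between treatment effects, 2 of 6 members were called for KELLY minus IMR-32 (3.28% of all genes), 1 of 6 for SK-N-DZ minus IMR-32 (2.61%) and 1 of 6 for SK-N-DZ minus KELLY (3.9%). For BRM014 in IMR-32 minus auxin in SMARCA4-mAID cells none of 7 was called by edgeR or DESeq2 (1.95% of all genes by edgeR). No member had an unadjusted p below 0.05 in that comparison, the smallest being 0.116 for DACH1, whose difference was 0.39 (95% interval -0.09 to 0.87).

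Summed markers of cell state differed between treated and vehicle libraries in several cultures. In KELLY the summed level of 8 mesenchymal markers was 186.1 to 243.5 CPM with DMSO and 506.9 to 537 CPM with BRM014. That of the 10 adrenergic markers in KELLY was 4094.9 to 4118.5 CPM with DMSO and 5322.9 to 5365.0 CPM with BRM014. VIM and YAP1 were at 0 in KELLY with DMSO, and PRRX1, YAP1 and WWTR1 with BRM014. In SK-N-DZ the mesenchymal sum was 362.4 to 375.8 CPM with DMSO and 400.9 to 469 CPM with BRM014, and the adrenergic sum was 4444.2 to 4623.6 and 5002.0 to 5677.3 CPM, both higher with BRM014 without overlap. In IMR-32 the mesenchymal sum was 440.8 to 451.1 CPM with DMSO and 331.5 to 345.8 CPM with BRM014, and the adrenergic sum was 3022.1 to 3287.6 and 2918.5 to 2988.0 CPM, both lower with BRM014. In SMARCA4-mAID cells the mesenchymal sum was 370.5 to 423 CPM with ethanol and 445.3 to 485.7 CPM with auxin, and the adrenergic sums, 2683.4 to 2719.3 and 2378.8 to 2823.2 CPM, overlapped. The part of these markers in the member results was not tested.

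Vehicle levels of the members were compared between the KELLY, SK-N-DZ, IMR-32 and SMARCA4-mAID cultures. These cultures differ in line and medium, and the SMARCA4-mAID cells also in their vehicle, so a difference describes the cultures. Of the 7 tested members 6 were called between KELLY and IMR-32 with DMSO (2 higher and 4 lower in KELLY, where 39.6% of all genes were called), and 5, all lower in SK-N-DZ, between SK-N-DZ and IMR-32 (44.1%). Both counts of lower members include EYA2, which had no count in KELLY or SK-N-DZ. EYA2 passed the filter only through the IMR-32 cultures, so its direction in these 2 comparisons was fixed by the filter. Between SK-N-DZ and KELLY 4 of 6 were called, 3 of them higher in SK-N-DZ (31.8%). Between SMARCA4-mAID cells with ethanol and IMR-32 with DMSO 3 of 7 were called, 1 higher and 2 lower in the engineered cells (6.16%). These comparisons share their control libraries.

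Per kilobase of exon, SIX3 and DACH1 stood highest in IMR-32 with DMSO, at 74.9 ± 23.4 and 50.8 ± 3.01 CPM per kb (SD), followed by EYA4 (25.7 ± 3.95), EYA2 (12.2 ± 1.99), EYA3 (11.6 ± 2.08), EYA1 (10.9 ± 1.09) and SIX4 (4.68 ± 1.06). EYA2, EYA3 and EYA1 lay within their spread of each other. In KELLY with DMSO the order was EYA1 (29.9 ± 1.89), EYA3 (18.2 ± 3.71), SIX3 (11.4 ± 0.234), DACH1 (5.49 ± 1.16), EYA4 (5.39 ± 1.18) and SIX4 (4.56 ± 0.0927), the last 3 within their spread of each other. In SK-N-DZ with DMSO it was SIX3 (28.6 ± 4.70), EYA3 (13 ± 2.47), DACH1 (11.7 ± 0.671), EYA4 (10.6 ± 0.821), SIX4 (6.20 ± 0.878) and EYA1 (1.62 ± 0.302), with DACH1 and EYA4 within 1 SD of EYA3.

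SIX3 was 7.38-fold lower in KELLY than in IMR-32 (log2 -2.88, adjusted p = 3.94e-23) and 2.92-fold lower in SK-N-DZ (log2 -1.55, adjusted p = 7.30e-13). DACH1 followed the same order of lines, 10.4-fold lower in KELLY (log2 -3.38, adjusted p = 1.14e-26) and 4.8-fold lower in SK-N-DZ (log2 -2.26, adjusted p = 2.06e-19). EYA4 did too, at 5.33-fold and 2.67-fold lower (log2 -2.41 and -1.42, adjusted p = 4.17e-17 and 2.49e-09). SIX3, EYA4 and DACH1 were thus each highest in IMR-32 and lowest in KELLY, and for each the step from KELLY up to SK-N-DZ was called (log2 1.34, 1.00 and 1.12).

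EYA1 took another order. It was 2.47-fold higher in KELLY than in IMR-32 (log2 1.30, adjusted p = 1.74e-12) and 7.32-fold lower in SK-N-DZ than in IMR-32 (log2 -2.87, adjusted p = 1.25e-21), which put SK-N-DZ 18.1-fold below KELLY (adjusted p = 2.29e-35). EYA2, with 116 counts over the IMR-32 DMSO libraries and none in the others, was at least 42.3-fold lower in KELLY and at least 49.8-fold lower in SK-N-DZ, taking 3 counts over the group as the floor. EYA3 was called between KELLY and IMR-32 (log2 0.52, adjusted p = 0.0373), but not without IMR-32 DMSO replicate 1 (adjusted p = 0.354), without KELLY DMSO replicate 1 (0.496) or without the filter (0.0622). None of the 4 vehicle comparisons that were run called SIX4, with log2 differences of -0.20 to 0.45.

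The engineered IMR-32 line differed from its parent at EYA1 and EYA4 in opposite directions. EYA1 was 2.6-fold higher in SMARCA4-mAID cells with ethanol than in IMR-32 with DMSO (log2 1.38, SE 0.146, adjusted p = 1.99e-12). EYA4 was 7.01-fold lower (log2 -2.81, SE 0.223, adjusted p = 1.01e-18). SIX3 was lower by 0.60 on the log2 scale (adjusted p = 0.0102), which was not called without IMR-32 DMSO replicate 1 (log2 -0.22, adjusted p = 0.727) or without ethanol replicate 2 (adjusted p = 0.242). For EYA1 and EYA4, both libraries of one line lay beyond both of the other, and the calls held with each of the 4 libraries left out.

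**Figure D3:**
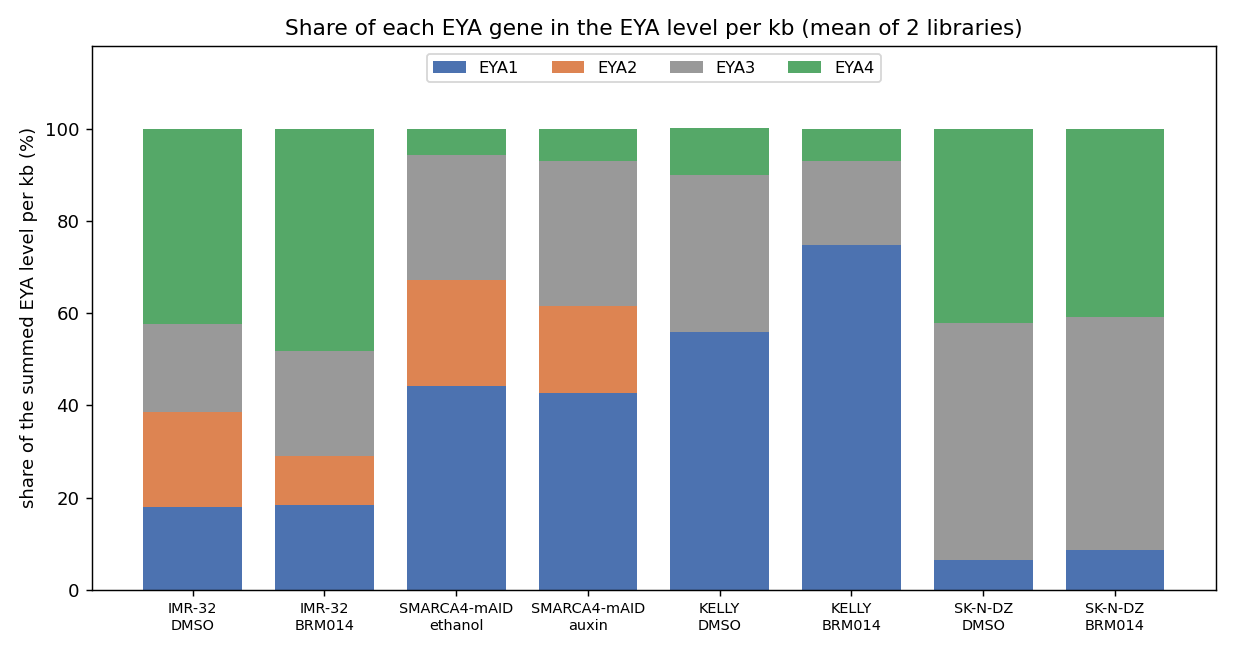
Share of each EYA gene in the summed EYA level per kb (vertical axis, %, mean of 2 libraries) in the 8 labelled groups. EYA4 takes the largest share in IMR-32 (42.4% with DMSO), EYA1 in SMARCA4-mAID cells (44.2% with ethanol) and KELLY (55.9% with DMSO and 74.8% with BRM014), and EYA3 in SK-N-DZ (51.4% with DMSO).

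The make-up of the EYA family differed between cultures with a similar total. The 4 EYA genes summed to 451.9 ± 51.95 CPM (SD) in IMR-32 with DMSO, 447.6 ± 4.33 in KELLY with DMSO and 472.7 ± 2.06 in SMARCA4-mAID cells with ethanol, all within 1 SD of the IMR-32 value, and to 194.4 ± 20.6 in SK-N-DZ with DMSO. Of the level per kb in IMR-32 with DMSO, EYA4 held 42.4% ± 2.94, EYA2 20.5% ± 5.04, EYA3 19.1% ± 1.83 and EYA1 18% ± 0.269. In SMARCA4-mAID cells with ethanol EYA1 held 44.2% ± 4.64 and EYA4 5.67% ± 1.03. KELLY with DMSO had EYA1 at 55.9% ± 4.21, EYA3 at 34.1% ± 6.54 and EYA4 at 10.1% ± 2.33. With BRM014 the KELLY sum was 1038.0 ± 15.4 CPM, and EYA1 held 74.8% ± 0.949 of the level per kb. SK-N-DZ kept EYA3 and EYA4 as its main EYA genes in both groups, at 51.4% ± 3.71 and 42.1% ± 1.74 with DMSO and 50.6% ± 5.43 and 40.8% ± 7.39 with BRM014.

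The other SIX-family and DACH genes filled in part of the family picture. SIX2, a kidney progenitor factor, read 82.1 and 81.0 CPM in IMR-32 with DMSO and 27.0 and 28.4 CPM with BRM014. There SIX2 fell by 1.51 in log2 units (SE 0.326, adjusted p = 3.84e-04), while SIX3 rose. SIX2 was not called in the 3 remaining comparisons, where SIX3 also rose. Its log2 differences were -1.03 in KELLY (adjusted p = 0.384), 0.05 in SK-N-DZ (0.948) and -0.77 with auxin (0.103). The auxin difference was called with only the 4 SMARCA4-mAID libraries in the model or without auxin replicate 2. SIX6 had 2 counts in all and DACH2 had none.

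Of 15 co-repressors and partners of these factors, 14 were tested. In IMR-32 with BRM014 2 rose and 2 fell, in KELLY 4 rose and 2 fell, in SK-N-DZ 2 rose and 4 fell, and with auxin 1 rose and 1 fell. These are 4, 6, 6 and 2 of 14 genes, beside 12.8%, 11.6%, 19.4% and 2.19% of all tested genes. The median log2 change of the list was 0.10, 0.08, 0.00 and -0.04 in that order, close to that of all genes. SKIL, a co-repressor of the same protein superfamily as DACH1, rose in the 3 BRM014 comparisons, with log2 changes of 0.86, 2.02 and 1.44 (adjusted p = 9.62e-13, 1.49e-33 and 7.52e-25), with 0.02 for auxin (adjusted p = 0.979). Among the Groucho co-repressors, TLE3 and TLE4 moved in opposite directions in all 4 comparisons. TLE3 fell by 1.97 in IMR-32, fell by 0.83 in KELLY, fell by 1.70 in SK-N-DZ and fell by 1.06 with auxin, while TLE4 rose by 0.67, 1.39, 0.60 and 0.70. TLE1 rose by 0.85 in KELLY (adjusted p = 0.0359), which was lost without BRM014 replicate 2 (0.343), DMSO replicate 1 (0.118) or DMSO replicate 2 (0.191), without the filter (0.0503) and with DESeq2 (0.0524). AES, a short relative of the TLE genes, fell by 1.22 in SK-N-DZ (adjusted p = 0.019), which was lost without BRM014 replicate 1 (0.242), DMSO replicate 1 (0.0622) or DMSO replicate 2 (0.0755) and with the GC and length correction (0.379). Of the 18 calls in the list 9 were kept under every alternative. Among those not kept, TLE3 in KELLY was lost without BRM014 replicate 2 (adjusted p = 0.0618), and TLE4 in SK-N-DZ was lost without DMSO replicate 1 (0.135). TLE4 with auxin was lost without ethanol replicate 2 (0.117) or auxin replicate 2 (0.0586). GMNN, which encodes the SIX3-binding replication inhibitor geminin, fell with BRM014, by 0.60 in IMR-32, by 0.60 in KELLY and by 0.91 in SK-N-DZ. The SK-N-DZ call held under every alternative. The IMR-32 call was lost without BRM014 replicate 1 (0.0867) or DMSO replicate 1 (0.233), and the KELLY call without BRM014 replicate 1 (0.12), DMSO replicate 1 (0.0642) or DMSO replicate 2 (0.0553).

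Of 6 PAX genes, whose products act upstream of or beside the network in several tissues, 2 were tested. With BRM014 PAX5 fell by 1.51 in IMR-32 (adjusted p = 0.00421). It also fell by 0.92 in SK-N-DZ (adjusted p = 0.0232). The IMR-32 call was lost without BRM014 replicate 1 (0.0898) or DMSO replicate 2 (0.156), and the SK-N-DZ call without BRM014 replicate 1 (0.144), BRM014 replicate 2 (0.0759) or DMSO replicate 1 (0.182) and with the GC and length correction (0.317).

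Of 15 genes reported as targets of these factors in other tissues, 7 were tested. With BRM014, 3 fell in IMR-32 and 3 in KELLY with none rising, and 2 fell and 1 rose in SK-N-DZ, while with auxin 4 fell. The share called over all genes was 12.8%, 11.6%, 19.4% and 2.19% in these comparisons, and 8 of the 13 calls in the list were kept under every alternative. GDNF, a neurotrophic factor gene, was among those that fell in KELLY. Its call (adjusted p = 0.0316) was lost without any one of the 4 KELLY libraries, namely BRM014 replicate 1 (0.184) or 2 (0.192) and DMSO replicate 1 (0.323) or 2 (0.109). TGFBR1, a TGF-beta receptor gene, was among those that fell with auxin (adjusted p = 0.0153), a call lost without ethanol replicate 1 (0.462), auxin replicate 1 (0.0593) or auxin replicate 2 (0.174). The list medians were -0.61, -0.55, -0.06 and -0.52, beside -0.02, 0.00, -0.04 and 0.00 over all genes. In SK-N-DZ and with auxin they include GDNF at 0.00, which had 0 counts in those libraries. CCND1, the gene of cyclin D1, which is reported as raised by SIX-family and EYA proteins and lowered by DACH1, fell by 1.18 in IMR-32, by 0.99 in KELLY and by 1.07 in SK-N-DZ with BRM014 (adjusted p = 5.79e-23, 4.74e-18 and 2.40e-20). With auxin it fell by 0.29 (adjusted p = 0.0144), a call lost when any one of the 4 SMARCA4-mAID libraries was left out, namely ethanol replicate 1 (0.138) or 2 (0.133) and auxin replicate 1 (0.239) or 2 (0.0539). EZR, the gene of the membrane linker ezrin, fell by 1.07 in IMR-32 with BRM014 and by 0.76 with auxin. IGFBP5 fell by 1.33 with auxin (adjusted p = 7.29e-06). The 1 gene that rose in SK-N-DZ was IGFBP5, and it rests on 9 and 1 counts against 1 and 0. That call was lost without BRM014 replicate 1 (adjusted p = 0.61).

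Genes next to the members were read from RefSeq's gene table (GRCh38.p14). Beside SIX3, the long noncoding RNA gene LINC01833 lies 2503 bp away on the side of lower coordinates. It read 0 and 4 counts with DMSO and 18 and 13 counts with BRM014 in KELLY, and 23 and 15 against 28 and 24 counts in SK-N-DZ. Relative to library size it rose with SIX3 in both lines, by 2.80 in KELLY (adjusted p = 0.0054) and by 1.61 in SK-N-DZ (adjusted p = 0.0117). The KELLY call was lost without BRM014 replicate 1 (0.0595) or DMSO replicate 1 (0.277), and the SK-N-DZ call without BRM014 replicate 1 (0.0976) or DMSO replicate 2 (0.16). In IMR-32 and with auxin its log2 differences were 0.39 and 0.35, and neither was called. SIX3-AS1, an antisense gene that overlaps SIX3 by 177 bp, had at most 11 counts in a library and no call. As the strand setting of the counting is not given, reads in the overlap could belong to either gene.

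ZMYND8, a chromatin reader gene 20370 bp from EYA2, fell with BRM014 by 1.46 in IMR-32 (adjusted p = 9.88e-05), where EYA2 differed by -1.07 without a call. It fell by 0.60 in SK-N-DZ (adjusted p = 0.0148), where EYA2 had no counts. The SK-N-DZ call was lost without BRM014 replicate 2 (0.17), DMSO replicate 1 (0.133) or DMSO replicate 2 (0.0655). MNAT1 beside SIX4, DMPK beside SIX5, XKR8 beside EYA3 and TARID, which overlaps EYA4 by 29877 bp, gave no call with either agent. TARID held at most 9 counts in a library.

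The tested genes whose levels followed a member most closely over the 16 labelled libraries were sought among 11204 named genes. The libraries come from 4 cultures, so r describes lines and treatments together. SPOPL (r = 0.964) and RMND5A (r = 0.958) were nearest to SIX3, ARHGAP17 (0.912) and UVSSA (0.867) to SIX4, and TANC2 (0.972) and ST8SIA3 (0.946) to EYA1. NPTX2 (0.996) and CNGA3 (0.995) were nearest to EYA2, AKIRIN1 (0.851) and SYT4 (0.823) to EYA3, SEMA5A (0.939) and ZNF654 (0.918) to EYA4, and AFF3 (0.981) and ADAM10 (0.966) to DACH1. No member was among the 2 nearest genes of another member.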

How the data were processed

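Gene counts from 4sU RNA-seq were deposited for 18 libraries. The authors deposited raw counts per gene symbol, termed conversion counts by the file names. The submitters' processing notes name the build hg38 and the tools HISAT, HTSeq and DESeq2, but no version and no role. Per the labels' protocols, RNA of labelled cells was treated with iodoacetate and poly(A) RNA was captured. For the rule by which reads were counted, the strand setting and the annotation, nothing is stated in the labels. Summary lines were kept out of library sizes (no feature 46.4% to 57.4%, ambiguous 1.11% to 1.71% in labelled libraries).

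The 16 labelled libraries were fitted in a group-means model with edgeR 4.0.16 (R 4.3.3), using its quasi-likelihood test (TMM scaling, filterByExpr, biological coefficient of variation 0.143, 8 residual degrees of freedom). All adjusted p-values in the text are Benjamini-Hochberg values from this test over all tested genes unless another tool is named. A change common to all genes of a library would not show. The labels do not state if libraries within a group are separate cultures. The p-values rest on the spread within groups, estimated over all 16 libraries, and that spread is possibly only technical. Floors cover counting error only. The 95% intervals of log2 differences come from the fit.

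The members and the gene lists were chosen with earlier results of these data known. Besides the members, the text names list genes called in a treatment comparison (at most 4 a list with the smallest p), the nearest and overlapping genes, and the 2 genes with the highest Pearson r of log2 CPM (prior count 2, mean CPM of at least 10 in some group). Some named genes are not reported here. SIX6, DACH2, TLE1, AES, GDNF and TGFBR1, and the detail for IGFBP5, were added after their values were seen. Exon lengths and coordinates (GRCh38) are from GENCODE 29, and sequences were read from its transcripts. Replicate numbers shared across groups were not used to pair the libraries in the main fit. The fit was tested on simulated data. Alternatives were DESeq2 1.42.0 and its size factors, no filter, a replicate block, only the 4 libraries compared, a GC and length correction, and leaving out each library. The lone library of a group was then assumed to vary like the other groups.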

Additional observations from a re-analysis of the deposited data

Results flagged for a closer look

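Differences between lines in the response to BRM014 passed the threshold for 3 members, in edgeR's quasi-likelihood test of the difference itself. EYA1 rose more in KELLY than it changed in IMR-32, by 1.74 on the log2 scale (adjusted p = 2.41e-09), and both treated KELLY libraries and neither treated IMR-32 library lay above both DMSO libraries of its line. EYA1 also differed between SK-N-DZ and IMR-32, by 1.16 (adjusted p = 0.0448), a call lost with 6 of the 8 libraries left out in turn (adjusted p up to 0.271), with DESeq2's size factors (0.0509) and with the GC and length correction (0.0648). DACH1 differed between KELLY and IMR-32 by 1.33 (adjusted p = 0.00152), with both KELLY libraries above and both IMR-32 libraries below their DMSO libraries, and was not called without KELLY DMSO replicate 1 (0.0539). SIX3 rose in both SK-N-DZ and KELLY, and by 1.10 more in SK-N-DZ (adjusted p = 0.0135), which was not called without KELLY DMSO replicate 1 (0.0674) or SK-N-DZ DMSO replicate 2 (0.0836).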

How the results depend on the processing

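Over the members, settings that kept all libraries of the compared groups lost 7 calls and gained 6. Under them 403 of 416 values kept their side of the threshold. With a library left out, 382 of 412 did so, 24 lost a call and 6 gained one. No member value changed direction while called. Values without a call could change direction, as SIX4 did in KELLY with BRM014 (log2 -0.24, and 0.12 without BRM014 replicate 2). With only the 4 libraries of the compared groups, and with the GC and length correction, 2 members were called in IMR-32, the second being DACH1. With that correction 2 members were called in SK-N-DZ. Leaving out each library gave these ranges of members called, 1 to 2 for auxin and 2 in each case for BRM014 in SK-N-DZ. Genes called over the whole table then ranged from 922 to 1110 for BRM014 in IMR-32, 872 to 1160 in KELLY and 1622 to 1893 in SK-N-DZ. They ranged from 131 to 158 for auxin, from 372 to 485 for SMARCA4-mAID cells with ethanol against IMR-32 with DMSO, and from 140 to 201 for BRM014 in IMR-32 minus auxin. A replicate block changed no member call, lost that of GDNF in KELLY (adjusted p = 0.0576) and left 1653 genes called for BRM014 in IMR-32, 1450 in KELLY, 2442 in SK-N-DZ and 299 for auxin. Deviations of libraries with the same number correlated at -0.0311 to 0.0105, so no pairing by number was detected. Whether libraries with the same number were prepared together was not tested. Depth limits SIX5, SIX4, EYA2 in IMR-32 and EYA1 in SK-N-DZ, which rest on few counts a library. In KELLY with DMSO the libraries also held few counts of SIX3 (45 and 36) and of DACH1 (40 and 42).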
